A study of Homo sapiens with 18 samples.

Results

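The integrated stress response genes around ATF4 were followed in MDA-MB-231 cells, an established human triple-negative breast carcinoma line, after knockdown of fibrillarin. The set is given by gene symbol and has 10 members: ATF4, DDIT3, ASNS, TRIB3, CHAC1, SESN2, ATF3, PSAT1, PHGDH and PPP1R15A. Of these, 9 have an entry among the 17017 genes of the deposited table, and ASNS is not analysed here. Fibrillarin (FBL) is the nucleolar enzyme that 2'-O-methylates ribosomal RNA. Cells carried a lentiviral construct, either one read here as the scramble control (SC) or 1 of 2 short hairpin RNAs against the fibrillarin mRNA (SH2 and SH3). All of them were kept in puromycin at 1 µg/ml for 96 hours, then in fresh medium until the next day, and received cycloheximide at 100 µg/ml for 5 minutes before lysis. Each treatment has 3 replicates of cytoplasmic RNA and 3 of ribosome-protected footprints, 18 libraries in all. The labels do not say whether replicates came from separate transductions, so p-values measure only the spread between these samples.

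In the integrated stress response, kinases that sense amino acid shortage, unfolded proteins, viral RNA or haem loss phosphorylate the initiation factor eIF2. General initiation then falls, while a few mRNAs with upstream open reading frames, ATF4 among them, are translated better. ATF4 protein, a bZIP transcription factor, binds C/EBP-ATF composite elements in genes for amino acid synthesis, redox balance and further stress regulators such as DDIT3, which encodes CHOP. PPP1R15A, also called GADD34, brings a phosphatase to eIF2 and closes the loop. Neither eIF2 phosphorylation nor protein was measured here, and a change in RNA per cell cannot be told apart from a change in the share of cells that make it.

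Promoters of the set were searched for the letters such factors are known to bind, to show which members carry one near the start. Sequences are from RefSeq, build GRCh38.p14, and run from 250 bases before to 50 after each start. All 9 members matched, with 14 windows among them. The composite-type motif TGATGNAA, searched on both strands, stands in 3.62% of 35116 windows of all genes and in CHAC1 and ATF3 here. The cyclic AMP response element TGACGTCA, a palindrome, stands in 1.85% of all windows and in PPP1R15A here. These 2 motifs shared no match in the members. The shares count windows, whereas members are named by gene. ATF3 has 2 windows with separate starts, and only window 1 holds the match. The 3 matches are shown with their flanks, plus strand, capitals marking the match.
CHAC1, chr15:40953247-40953284, 209 bases before the start, motif on the reverse strand: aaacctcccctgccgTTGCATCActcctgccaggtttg
ATF3, chr1:212565201-212565238, 191 bases before the start: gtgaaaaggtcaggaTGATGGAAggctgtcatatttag
PPP1R15A, chr19:48872348-48872385, 58 bases before the start: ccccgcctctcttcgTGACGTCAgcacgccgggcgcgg
A match is only a match of letters, and the windows of ATF4, DDIT3, TRIB3, SESN2, PSAT1 and PHGDH held neither string.

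RNA libraries held 23469830 to 27629488 counts and footprint libraries 1662705 to 6098648, with SH3 replicate 1 the shallowest. Levels are given as counts scaled by TMM library size (CPM), in the order of replicates 1, 2 and 3. FBL RNA stood at 349 to 421 CPM in SC, with 1.26 to 11.2 in SH2 and 2.95 to 4.15 in SH3, so the target was low in every hairpin library. The mesenchymal markers VIM, CD44, AXL, MSN and CAV1 were all above 131 CPM in SC RNA, while the luminal genes ESR1, PGR and CDH1 were below 0.45 CPM, as was ALB. GATA3 and EPCAM, other luminal genes, were at 8.03 and 5.66 CPM, and the markers of other tissues PTPRC, PECAM1 and COL1A1 at 1.35, 2.65 and 32.2 CPM (means of 3). Some of these differed in the hairpin libraries. COL1A1, a fibroblast collagen, was at 76.6 CPM in SH2 and 68.7 in SH3, PTPRC at 0.332 and 0.242, PECAM1 at 3.14 and 1.67, GATA3 at 11.2 and 8.65 and EPCAM at 5.99 and 7.94. The lowest mesenchymal value was 65.1 CPM, for CAV1 in SH3, while ESR1, PGR, CDH1 and ALB were below 0.19 CPM in every hairpin library. Their part in the results was not tested.

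The comparison of RNA with SC asks which of these genes changed in abundance. In SH2 all 9 members passed edgeR's quasi-likelihood test at an adjusted p under 0.05. DDIT3, TRIB3, CHAC1, SESN2, ATF3 and PPP1R15A rose, 6 genes, against 31.1% of all genes tested that were called higher. ATF4, PSAT1 and PHGDH fell, 3 genes, against 30.4% called lower. In SH3, 4 members rose (DDIT3, SESN2, ATF3 and PPP1R15A; 27.8% of all genes were called higher) and the same 3 fell (25.2% were called lower). TRIB3 and CHAC1 were not called in SH3. With shares of all genes this large, a call alone does not set these members apart. The median log2 change of the 9 was 0.82 in SH2 and 0.29 in SH3, beside 0.01 and 0.03 over all genes. Both hairpins share the same SC libraries.

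**Figure D1:**
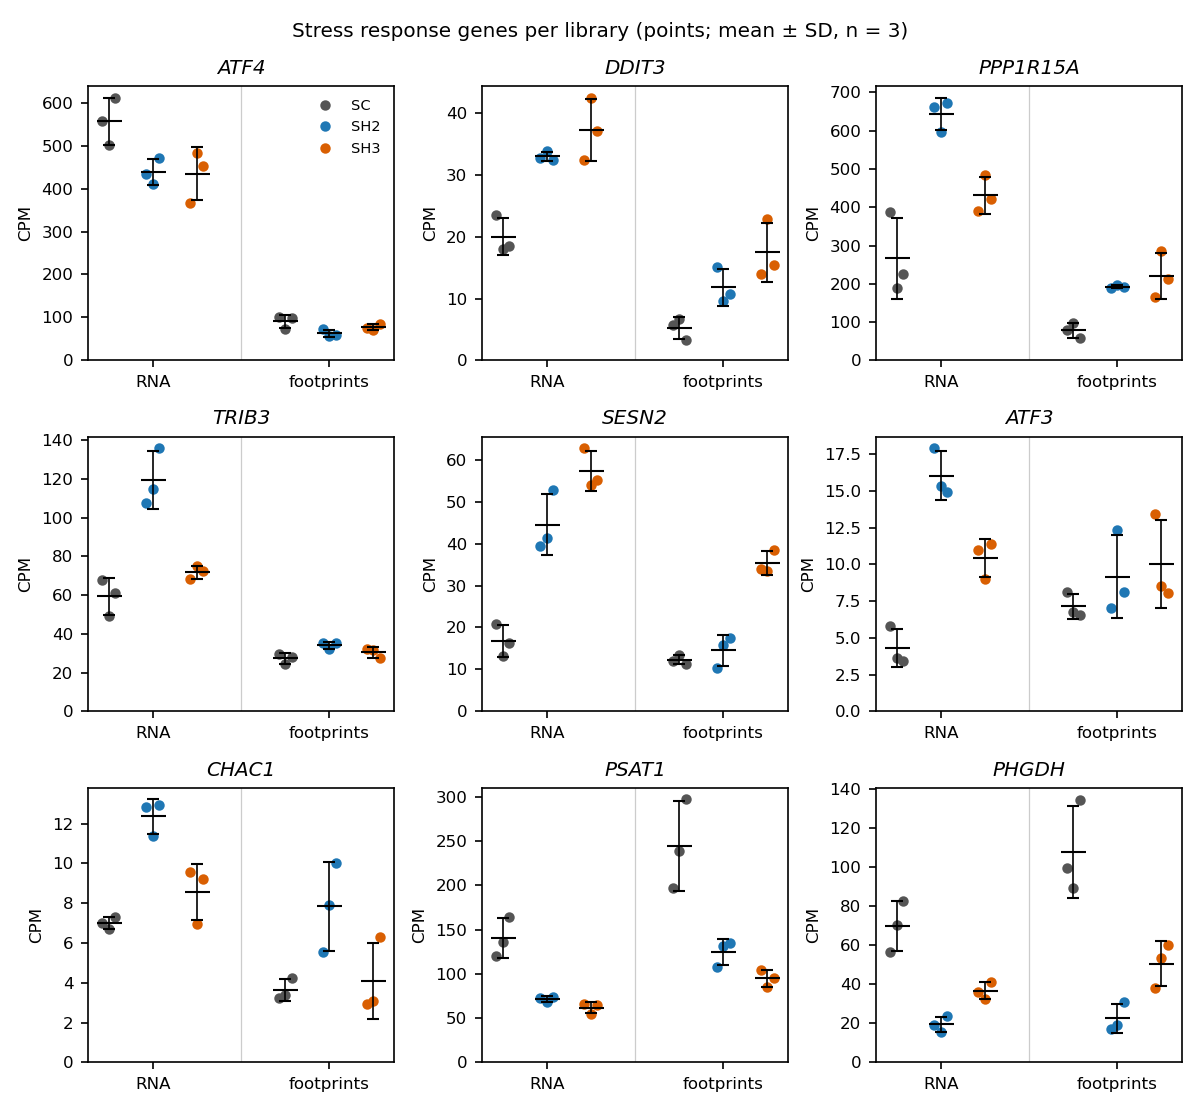
CPM of 9 stress response genes (y axes, linear from 0) in RNA and footprints of SC (grey), SH2 (blue) and SH3 (orange); points are libraries in replicate order, bars mean and SD (n = 3). PHGDH and PSAT1 of both hairpins lie below all SC libraries in both kinds, and DDIT3 and PPP1R15A of both hairpins lie above them.

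ATF4, the transcription factor at the head of the set, was lower in RNA, not higher. Its RNA stood at 557, 501 and 611 CPM in SC, with 435, 411 and 470 in SH2 and 366, 484 and 454 in SH3. Every hairpin library was below every SC library. The log2 change was -0.34 in SH2 (SE 0.12, adjusted p 0.0188 by edgeR) and -0.36 in SH3 (SE 0.12, adjusted p 0.0179 by edgeR). With plain library totals, which put the median of all genes at 0.11 and 0.12, the changes were -0.25 and -0.27 and no longer called (adjusted p 0.0677 and 0.0567 by edgeR). Leaving out SC replicate 3 also ended both calls (-0.27 and -0.29, adjusted p 0.0887 and 0.0869 by edgeR). So did leaving out SH2 replicate 2 (-0.30, adjusted p 0.0584 by edgeR) or SH3 replicate 1 (-0.29, adjusted p 0.0582 by edgeR).

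ATF4 footprints were 100.3, 73.7 and 98.7 CPM in SC, with 72.2, 57.8 and 59.9 in SH2 and 74.9, 70.9 and 85.2 in SH3. SH2 lay below SC in every library, and SH3 overlapped it. Footprints fell by 0.54 on the log2 scale in SH2 (SE 0.16, adjusted p 0.0112 by edgeR). That call was lost without SC replicate 3 (-0.47, adjusted p 0.0595 by edgeR) or without SH2 replicate 2 (-0.46, adjusted p 0.0581 by edgeR). In SH3 the footprint value was -0.25 (SE 0.16, adjusted p 0.234 by edgeR), which was not called. ATF4 has processed pseudogenes, and how reads with several matches were counted is not given in the sources used here, so its counts are uncertain to that extent. PSAT1 shares this limit.

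The 5 genes whose RNA followed ATF4 most closely were SMYD2, RPL19, RPL13, RPL18 and RPS2. Pearson's r of log2 CPM with ATF4 over the 9 RNA libraries was 0.966, 0.964, 0.960, 0.955 and 0.953, among 12709 genes. These libraries fall into 3 treatments and share their scaling, so the values are a description. RPL19, RPL13, RPL18 and RPS2 encode ribosomal proteins and SMYD2 a lysine methyltransferase. Their log2 changes lay between -0.22 and -0.38 in SH2, and between -0.23 and -0.46 in SH3. None of the other 8 members of the set was among these 5.

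DDIT3 encodes CHOP, the stress-induced bZIP factor linked to cell death. DDIT3 RNA was 23.5, 18.05 and 18.5 CPM in SC, with 32.8, 33.8 and 32.5 in SH2 and 32.4, 42.5 and 37.2 in SH3. No hairpin library overlapped SC. The log2 rise was 0.72 in SH2 (SE 0.13, adjusted p 0.000235 by edgeR) and 0.90 in SH3 (SE 0.13, adjusted p 5.96e-05 by edgeR).

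Its footprints rose as well. They were 5.68, 6.74 and 3.37 CPM in SC, with 15.2, 9.56 and 10.7 in SH2 and 14.0, 22.9 and 15.4 in SH3. The groups again did not overlap, although these values rest on 16 to 67 counts a library. The footprint change was 1.201 in SH2 (SE 0.31, adjusted p 0.00519 by edgeR) and 1.81 in SH3 (SE 0.30, adjusted p 0.000325 by edgeR). SH2 and SH3 did not differ past the threshold in RNA (-0.18, SE 0.13, adjusted p 0.282 by edgeR) or in footprints (-0.61, SE 0.28, adjusted p 0.134 by edgeR).

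PPP1R15A, the stress-induced subunit that directs a phosphatase to eIF2, was higher with both hairpins. RNA was 387, 188 and 225 CPM in SC, with 662, 596 and 674 in SH2 and 389, 484 and 421 in SH3. SC replicate 1 stood far above the other two SC libraries, and SH3 replicate 1 lay just above it. The rise was 1.27 in SH2 (SE 0.20, adjusted p 8.63e-05 by edgeR) and 0.69 in SH3 (SE 0.20, adjusted p 0.00891 by edgeR). Without SC replicate 1 the SH3 value was 1.04, and without SH3 replicate 2 it was 0.57 and not called (adjusted p 0.0568 by edgeR). SH2 exceeded SH3 by 0.58 in RNA (SE 0.20, adjusted p 0.0312 by edgeR). That difference was not called by DESeq2 (adjusted p 0.0857). It was also lost without SH3 replicate 1 or 3 (adjusted p 0.0873 and 0.0765 by edgeR) and without SH2 replicate 1 or 3 (adjusted p 0.0660 and 0.0932 by edgeR), at 0.53 to 0.58.

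In footprints PPP1R15A stood at 80.0, 96.5 and 58.4 CPM in SC, with 190, 197 and 192 in SH2 and 165, 285 and 211 in SH3. Both hairpin groups lay above SC, and SC replicate 1, the library with the highest RNA, was in the middle of its group here. Footprints rose by 1.31 in SH2 (SE 0.20, adjusted p 7.93e-05 by edgeR) and 1.51 in SH3 (SE 0.20, adjusted p 4.60e-05 by edgeR). SH2 minus SH3 was -0.20, not called (SE 0.19, adjusted p 0.491 by edgeR).

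Footprints follow both RNA and its translation, and the second comparison asks how much of the set changed there. In SH2, 3 members rose in footprints (DDIT3, CHAC1 and PPP1R15A), while 21.0% of all genes were called higher. The 3 that fell were ATF4, PSAT1 and PHGDH, while 23.2% of all genes were called lower. In SH3, DDIT3, SESN2 and PPP1R15A rose (16.9% of all genes were called higher) and PSAT1 and PHGDH fell (19.0% were called lower). DDIT3 and PPP1R15A were called higher, and PSAT1 and PHGDH lower, in both kinds of library with both hairpins. The share of all genes called alike in all of these comparisons was not counted, and both hairpins share the SC libraries. Nothing particular to these members is read from it.

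**Figure D2:**
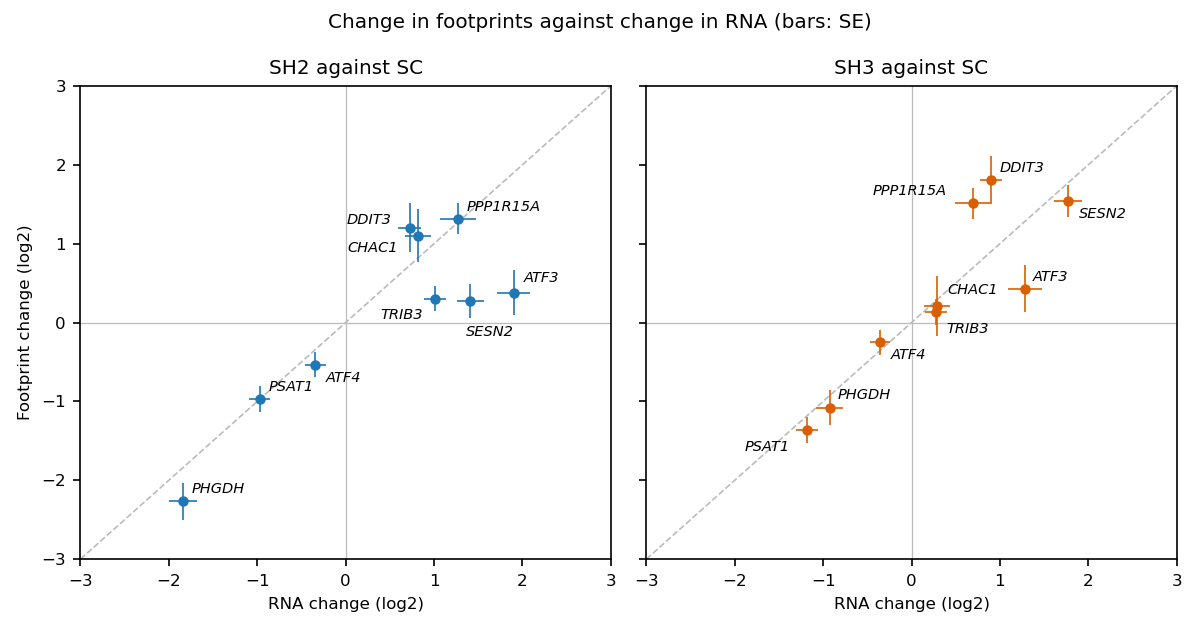
Log2 change against SC in RNA (x axis) and in footprints (y axis) for each gene, in SH2 (left) and SH3 (right); bars are SE and the dashed line marks equal change. In SH2, ATF3, SESN2 and TRIB3 lie far below the line, with RNA changes of 1.90, 1.41 and 1.01 and footprint changes of 0.38, 0.28 and 0.30.

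SESN2, a leucine sensor that restrains mTORC1, rose in RNA with both hairpins and differed between them in footprints. Its RNA was 20.7, 13.3 and 16.2 CPM in SC, with 39.5, 41.3 and 52.7 in SH2 and 62.8, 53.9 and 55.1 in SH3. Both hairpin groups stood wholly above SC. RNA rose by 1.41 in SH2 (SE 0.16, adjusted p 3.97e-06 by edgeR) and by 1.77 in SH3 (SE 0.16, adjusted p 1.33e-06 by edgeR). The RNA difference between the hairpins, -0.36, did not pass (SE 0.15, adjusted p 0.0680 by edgeR). It did pass with a replicate block (-0.36, adjusted p 0.0318 by edgeR), without SH2 replicate 3 (-0.49, adjusted p 0.0336 by edgeR), with no filter on low counts (adjusted p 0.0377 by edgeR) and with only SH2 and SH3 in the fit (adjusted p 0.0342 by edgeR).

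SESN2 footprints parted. They were 12.01, 13.5 and 11.4 CPM in SC, with 10.4, 15.9 and 17.5 in SH2 and 33.9, 33.6 and 38.6 in SH3. SH2 overlapped SC, and every SH3 library was far above every SH2 and SC library. The footprint change was 0.28 in SH2, not called (SE 0.22, adjusted p 0.314 by edgeR), and 1.54 in SH3 (SE 0.21, adjusted p 5.23e-05 by edgeR). SH2 footprints were lower than SH3 by -1.27 (SE 0.21, adjusted p 0.000468 by edgeR), and the difference was called under each of 13 alternative settings (-1.44 to -1.09).

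TRIB3 encodes a pseudokinase induced by ATF4 and CHOP. TRIB3 RNA was 68.0, 49.2 and 60.9 CPM in SC, with 107, 115 and 136 in SH2 and 68.2, 74.9 and 72.4 in SH3. SH2 stood clear of the other groups, whereas SH3 replicate 1 lay just above the highest SC library. RNA rose by 1.01 in SH2 (SE 0.12, adjusted p 1.01e-05 by edgeR). The SH3 value of 0.28 was not called (SE 0.12, adjusted p 0.0746 by edgeR). It was called with plain library totals (0.37, adjusted p 0.0143 by edgeR), with a replicate block (0.28, adjusted p 0.0470 by edgeR) and without SC replicate 1 (0.37, adjusted p 0.0247 by edgeR). The SH2 and SH3 values differed by 0.73 (SE 0.12, adjusted p 0.000412 by edgeR).

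TRIB3 footprints stayed close together, at 29.7, 24.4 and 28.1 CPM in SC, with 35.2, 32.2 and 35.3 in SH2 and 32.2, 31.8 and 27.3 in SH3. SH2 lay above SC and SH3 overlapped it. The changes, 0.30 in SH2 (SE 0.16, adjusted p 0.142 by edgeR) and 0.13 in SH3 (SE 0.17, adjusted p 0.566 by edgeR), were not called.

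ATF3, a bZIP factor of the early stress response, had the largest RNA rise of the set in SH2. Its RNA was 5.80, 3.67 and 3.42 CPM in SC, with 17.9, 15.3 and 14.9 in SH2 and 11.0, 8.98 and 11.4 in SH3. The 3 groups did not overlap. The rise was 1.90 in SH2 (SE 0.19, adjusted p 1.58e-06 by edgeR) and 1.28 in SH3 (SE 0.19, adjusted p 8.70e-05 by edgeR). SH2 exceeded SH3 by 0.62 (SE 0.18, adjusted p 0.0130 by edgeR), a call lost without SH3 replicate 2 (0.54, adjusted p 0.0545 by edgeR).

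ATF3 footprints were called in neither hairpin. They were 8.12, 6.74 and 6.57 CPM in SC, with 7.04, 12.4 and 8.09 in SH2 and 13.5, 8.56 and 8.06 in SH3, from 16 to 53 counts a library. The groups overlapped, and the changes of 0.38 (SE 0.28, adjusted p 0.297 by edgeR) and 0.43 (SE 0.30, adjusted p 0.281 by edgeR) did not pass the test.

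CHAC1, a gamma-glutamylcyclotransferase that degrades glutathione, was called higher in SH2 alone, and a direct test put the hairpins apart in RNA. CHAC1 RNA was 6.98, 6.72 and 7.32 CPM in SC, with 12.8, 11.4 and 12.9 in SH2 and 9.56, 6.96 and 9.20 in SH3. SH3 overlapped SC through its replicate 2. RNA rose by 0.82 in SH2 (SE 0.15, adjusted p 0.000245 by edgeR). The SH3 value was 0.29 (SE 0.15, adjusted p 0.110 by edgeR), called without SH3 replicate 2 (0.39, adjusted p 0.0457 by edgeR) and with plain library totals (0.38, adjusted p 0.0444 by edgeR). SH2 exceeded SH3 by 0.53 (SE 0.14, adjusted p 0.0101 by edgeR).

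CHAC1 footprints rest on 5 to 34 counts a library, the fewest of the set. They were 3.25, 3.37 and 4.26 CPM in SC, with 5.55, 7.93 and 10.0 in SH2 and 2.93, 3.08 and 6.31 in SH3. The rise in SH2 was 1.10 (SE 0.33, adjusted p 0.0137 by edgeR), lost without SH2 replicate 3 (0.91, adjusted p 0.0689 by edgeR). In SH3 the value was 0.21 (SE 0.39, adjusted p 0.705 by edgeR), and it turned to -0.27 without SH3 replicate 3. SH2 against SH3 gave 0.89 (SE 0.36, adjusted p 0.0837 by edgeR), called with a replicate block (0.94, adjusted p 0.0396 by edgeR) and without SH3 replicate 3 (1.37, adjusted p 0.0382 by edgeR).

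PHGDH and PSAT1, serine synthesis enzymes that ATF4 is known to activate, fell with both hairpins. PHGDH catalyses the first step of the pathway. PHGDH RNA was 56.7, 70.2 and 82.5 CPM in SC, with 19.1, 15.8 and 23.5 in SH2 and 36.1, 32.6 and 41.3 in SH3. The 3 groups did not overlap, with SH2 lowest. RNA fell by 1.84 on the log2 scale in SH2 (SE 0.16, adjusted p 5.62e-07 by edgeR) and by 0.93 in SH3 (SE 0.16, adjusted p 0.000237 by edgeR). SH2 was lower than SH3 by -0.91 (SE 0.16, adjusted p 0.000593 by edgeR).

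PHGDH footprints showed the same order. They were 99.4, 89.3 and 134 CPM in SC, with 17.0, 19.4 and 31.1 in SH2 and 38.1, 53.4 and 60.3 in SH3, again with no overlap. They fell by 2.27 in SH2 (SE 0.23, adjusted p 2.55e-06 by edgeR) and by 1.08 in SH3 (SE 0.22, adjusted p 0.00129 by edgeR), both on the log2 scale. The hairpins differed by -1.19 (SE 0.24, adjusted p 0.00219 by edgeR).

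PSAT1, the aminotransferase of the second step, fell with both hairpins. PSAT1 RNA was 120.0, 136 and 164 CPM in SC, with 72.6, 67.9 and 74.1 in SH2 and 66.0, 54.4 and 64.7 in SH3. All hairpin libraries were below SC, and SH3 lay below SH2. The change was -0.97 in SH2 (SE 0.12, adjusted p 1.03e-05 by edgeR) and -1.18 in SH3 (SE 0.12, adjusted p 3.84e-06 by edgeR).

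In footprints PSAT1 stood at 196, 239 and 298 CPM in SC, with 108, 131 and 135 in SH2 and 105, 85.3 and 95 in SH3. The change was -0.97 in SH2 (SE 0.16, adjusted p 0.000194 by edgeR) and -1.37 in SH3 (SE 0.17, adjusted p 2.30e-05 by edgeR). Although the hairpin groups did not overlap, their differences of 0.21 in RNA (SE 0.12, adjusted p 0.172 by edgeR) and 0.40 in footprints (SE 0.17, adjusted p 0.0942 by edgeR) were not called. The footprint difference was called with only SH2 and SH3 in the fit (0.40, adjusted p 0.0386 by edgeR).

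Tested against each other in RNA, SH2 was higher than SH3 in TRIB3, CHAC1, ATF3 and PPP1R15A, 4 members, against 18.9% of all genes. PHGDH was the 1 member lower, against 20.4% of all genes. In footprints no member was called higher in SH2 by edgeR or DESeq2, and SESN2 and PHGDH, 2 members, were lower, against 11.6% of all genes. FBL itself did not differ past the threshold between SH2 and SH3, in RNA (0.72, SE 0.47, adjusted p 0.242 by edgeR) or in footprints (1.08, SE 0.58, adjusted p 0.192 by edgeR). These FBL values rest on single SH2 libraries. Without SH2 replicate 3 they turned to -0.25 in RNA and -0.35 in footprints, and without SH2 replicate 1 the RNA value was 1.18.

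Translational efficiency, the footprint change minus the RNA change, was tested in 1 fit over all 18 libraries. In SH2 it fell for 3 members, ATF3, SESN2 and TRIB3, while 2.46% of all genes were called lower. No member was called higher, by edgeR or DESeq2. The ratio of footprint CPM to RNA CPM, taken between libraries with the same replicate number, shows these values by library. The labels do not say that such libraries share a lysate, and their deviations from the treatment means correlated at -0.49 to 0.50, with 4 of 9 pairs below 0. The ratios and their overlaps therefore rest on matching by number alone, which the fitted test does not use.

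The ATF3 ratio was 1.40, 1.84 and 1.92 in SC, 0.392, 0.807 and 0.543 in SH2 and 1.23, 0.953 and 0.709 in SH3. Both hairpin groups were wholly below SC. The change was -1.53 in SH2 (SE 0.34, adjusted p 0.0167 by edgeR) and -0.86 in SH3 (SE 0.36, adjusted p 0.296 by edgeR).

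For SESN2 the ratio was 0.579, 1.02 and 0.701 in SC, 0.262, 0.384 and 0.332 in SH2 and 0.541, 0.622 and 0.700 in SH3. SH2 stood alone, below both other groups. The change was -1.14 in SH2 (SE 0.27, adjusted p 0.0228 by edgeR) and -0.22 in SH3 (SE 0.26, adjusted p 0.796 by edgeR).

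TRIB3 had ratios of 0.437, 0.496 and 0.461 in SC, 0.328, 0.281 and 0.259 in SH2 and 0.472, 0.425 and 0.378 in SH3, and SH2 was again below both. The change was -0.72 in SH2 (SE 0.19, adjusted p 0.0388 by edgeR) and -0.14 in SH3 (SE 0.20, adjusted p 0.835 by edgeR).

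These calls have little margin, although the direction of all 3 held under each of 14 settings. None of the 3 was called without SC replicate 3 (edgeR adjusted p 0.0719 for ATF3, 0.0828 for SESN2 and 0.131 for TRIB3), without SH2 replicate 1 (0.0754, 0.0590 and 0.0609) or without SH2 replicate 3 (0.0763, 0.0681 and 0.166). TRIB3 was also lost without SC replicate 1 (0.0501) or SH2 replicate 2 (0.0877), and SESN2 without SC replicate 2 (0.0513). A block that ties RNA and footprint libraries of the same treatment and number, a link the labels do not give, ended the TRIB3 call (-0.70, adjusted p 0.0665 by edgeR). With footprint libraries thinned to equal depth SESN2 alone was called, and with only SH2 and SC in the fit ATF3 alone.

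**Figure D3:**
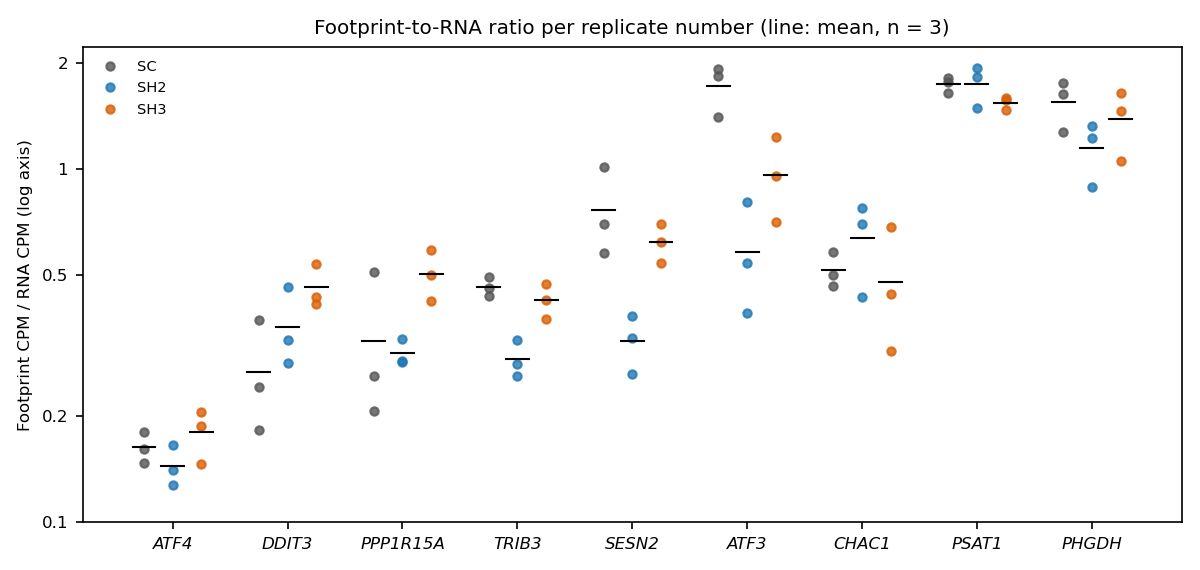
Ratio of footprint CPM to RNA CPM (y axis, log scale) for each gene; points are replicate numbers, lines the mean of 3, colours the treatments. The SH2 points of TRIB3, SESN2 and ATF3 lie below all SC points, while those of ATF4 and PSAT1 overlap them.

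In SH3 edgeR called no member in translational efficiency (0.686% of all genes were called in either direction), nor did DESeq2. At an unadjusted p under 0.05 there were 3 members, DDIT3 (0.94, SE 0.31), PPP1R15A (0.84, SE 0.31) and ATF3, beside 1574 of all 12531 genes. The DDIT3 ratio was 0.242, 0.373 and 0.182 in SC and 0.434, 0.540 and 0.415 in SH3, without overlap. For PPP1R15A it was 0.207, 0.512 and 0.260 in SC and 0.423, 0.590 and 0.502 in SH3, with overlap through SC replicate 2. Adjusted over all genes these were 0.181 and 0.226 by edgeR.

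Between SH2 and SH3, 0.0160% of all genes were called in translational efficiency by edgeR, and no member. Unadjusted p was under 0.05 for 3 members, TRIB3 (-0.59, SE 0.20), SESN2 (-0.92, SE 0.26) and PPP1R15A (-0.80, SE 0.30), beside 1471 of all 12531 genes. DESeq2 called 1, SESN2 (-0.93, DESeq2 adjusted p 0.0388). Apart from this, an SH2 call and a missing SH3 call do not show that the hairpins differ in translational efficiency.

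ATF4 efficiency did not change past the threshold, at -0.21 in SH2 (SE 0.19, adjusted p 0.614 by edgeR) and 0.11 in SH3 (SE 0.20, adjusted p 0.865 by edgeR). Its ratio was 0.180, 0.147 and 0.162 in SC, 0.166, 0.141 and 0.127 in SH2 and 0.205, 0.147 and 0.188 in SH3. The groups overlapped. In SC this ratio was below that of most genes, with 2.54% of 12531 genes lower, as it was for DDIT3 (8.29%) and PPP1R15A (10.3%). PHGDH, ATF3 and PSAT1 were near the other end, with 85.5%, 87.8% and 90.1% of genes lower, and TRIB3, CHAC1 and SESN2 between, at 22.5%, 29.0% and 45.0%. Which parts of a transcript were counted is not given in the sources used here, so these ranks are a description only.

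The remaining members changed little in efficiency relative to their errors. CHAC1 gave 0.27 in SH2 (SE 0.34) and -0.07 in SH3 (SE 0.38), PHGDH -0.45 (SE 0.30) and -0.14 (SE 0.29), and PSAT1 -0.01 (SE 0.20) and -0.18 (SE 0.21). PPP1R15A gave 0.04 in SH2 (SE 0.30) and DDIT3 0.47 (SE 0.32). None was called, and their edgeR adjusted p ran from 0.469 to 0.996.

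Other genes of the pathway were taken from 4 lists. The sensors and effectors at eIF2 (the eIF2 kinases, eIF2, its exchange factor eIF2B and regulators, 18 genes, all tested) are the first. In SH2 RNA 4 rose and 5 fell, while 31.1% of all genes were called higher and 30.4% lower. In SH3 RNA 4 rose and 3 fell, while 27.8% of all genes were called higher and 25.2% lower. The medians were -0.01 and 0.06, beside 0.01 and 0.03 over all genes. These counts, and those of the other 3 lists in RNA, stand beside the same shares of all genes, and nothing particular to a list is read from them. EIF2AK3, the endoplasmic reticulum kinase PERK, rose by 0.98 and 0.46 in SH2 and SH3 (adjusted p 2.57e-05 and 0.0107 by edgeR). The eIF2 subunits split. EIF2S1, the alpha subunit that is phosphorylated, rose by 0.28 and 0.40, whereas EIF2S2 changed by -0.72 and -0.31 and EIF2S3 by -0.62 and -0.37. EIF2B2 rose by 0.29 and 0.42, and EIF2AK2, the RNA-activated kinase PKR, changed by -0.52 and -0.35. With plain library totals the list had 7 rises and 4 falls in SH2 RNA, and 7 rises and 1 fall in SH3 RNA. The falls of EIF2S2, EIF2S3 and EIF2AK2 in SH3 were thus not all called under that scaling. EIF2S2 and EIF2S3 have processed copies elsewhere in the genome, so their counts are uncertain.

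Efficiency calls of list genes, here and below, were counted again only under DESeq2, its size factors, plain totals and no filter. Whether they hold without 1 replicate was not tested. PPP1R15B, the constitutive counterpart of PPP1R15A, had higher translational efficiency in SH3 (0.78, SE 0.16, adjusted p 0.0250 by edgeR). The SH2 value was 0.55, not called (SE 0.16, adjusted p 0.0582 by edgeR). Its footprints rose in both, with 100.3 ± 18.2 CPM in SC, then 167 ± 5.08 in SH2 and 160 ± 15.2 in SH3 (n = 3, SD). It was the only gene of the first list called in efficiency by edgeR in SH3, beside 86 of all genes. In SH2 edgeR called 0 of the list, beside 489 of all genes. Unadjusted p was under 0.05 there for 4 of the list, beside 2248 of all 12531 genes. DESeq2 called 3 of the list in SH2 and 2 in SH3, beside 930 and 383 of all genes. Nothing particular to the list is read from these counts. PPP1R15B also belongs to a short list of stress-resistant mRNAs with upstream open reading frames, 5 of 6 tested. In that list 1 rose and 3 fell in SH2 RNA, 1 rose and 1 fell in SH3 RNA, too few genes to read against the shares of all genes given above. IBTK fell in both (-0.91 and -0.64).

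**Figure D4:**
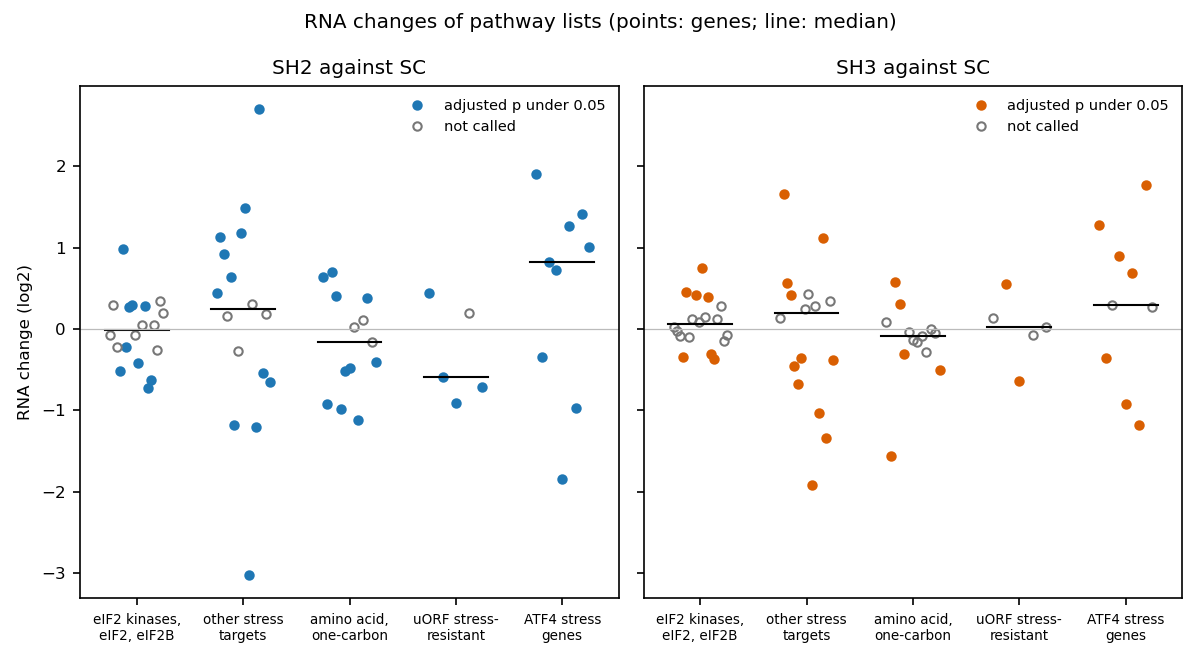
Log2 change in RNA against SC (y axis) for the genes of 4 pathway lists and the 9 members, in SH2 (left) and SH3 (right); filled points passed an adjusted p under 0.05, open points did not, lines are medians. Each list has filled points above and below 0 in both hairpins.

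Further targets and partners of ATF4 and CHOP (16 of 17 tested) gave 7 rises and 5 falls in SH2 RNA, where 31.1% of all genes were called higher and 30.4% lower. In SH3 RNA 4 rose and 7 fell, where the shares of all genes were 27.8% and 25.2%. The medians were 0.24 and 0.19. With plain library totals 9 rose and 5 fell in SH2 RNA, and 6 rose and 6 fell in SH3 RNA. In the main fit 3 genes of the list rose with both hairpins and 5 fell with both. The 3 that rose were BBC3, a pro-apoptotic BH3-only gene (1.13 and 1.67), CEBPB, a bZIP partner of CHOP (0.92 and 0.57), and STC2, a secreted glycoprotein (2.70 and 1.12) at 0.378 CPM in SC. The deepest shared falls were in JDP2, a bZIP repressor (-3.02 and -1.92), NUPR1, a stress-inducible chromatin protein (-1.21 and -1.04), and EIF4EBP1, which binds the cap-binding factor eIF4E (-1.18 and -0.67). All of these passed edgeR's test at an adjusted p of 0.0141 or less. In SH2 efficiency DESeq2 called 2 genes of the list, beside 930 of all genes, and edgeR called 1, beside 489. The gene called by edgeR was CEBPB (-1.09, SE 0.23, adjusted p 0.0127 by edgeR). Its RNA rose from 100.1 ± 5.40 CPM to 189 ± 12.8 (SD, n = 3), while its footprints stood at 115 ± 27.59 and 105 ± 28.3 CPM. In SH3 edgeR called none of the list in efficiency, beside 86 of all genes, and DESeq2 called 1, beside 383. Unadjusted p was under 0.05 for 2 genes of the list, beside 1574 of all 12531 genes. Nothing particular to the list is read from these counts.

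Amino acid synthesis and one-carbon genes (13 of 15 tested) gave 4 rises and 6 falls in SH2 RNA and 2 rises and 3 falls in SH3 RNA, with medians of -0.15 and -0.08. Of all genes, 31.1% were called higher and 30.4% lower in SH2 RNA, and 27.8% and 25.2% in SH3 RNA. ASS1, which makes argininosuccinate, changed by -0.92 and -1.56, and SHMT2, the mitochondrial serine hydroxymethyltransferase, by -0.41 and -0.50. GPT2, an alanine aminotransferase, changed by -0.98 and -0.30, the latter close to the threshold (adjusted p 0.0474 by edgeR). Falls of the list in SH3 RNA numbered 2 with plain library totals or no filter, and 4 with DESeq2. CTH, of the transsulfuration pathway, rose by 0.70 and 0.58, and GOT1, an aspartate aminotransferase, by 0.41 and 0.30. In footprints 6 of the 13 fell and 1 rose in SH2, beside 23.2% and 21.0% of all genes. In SH3 4 fell, beside 19.0% of all genes, and neither edgeR nor DESeq2 called a rise.

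PSPH completes serine synthesis after PHGDH and PSAT1. Its RNA was 41.0 ± 3.72 CPM in SC, with 18.9 ± 0.846 in SH2 and 38.7 ± 0.508 in SH3 (n = 3, SD). Its footprints fell by 1.93 on the log2 scale in SH2 (SE 0.21, adjusted p 4.10e-06 by edgeR), while SH3 gave -0.49 (SE 0.19, adjusted p 0.0556 by edgeR). The difference between the hairpins in footprints was -1.44 (SE 0.22, adjusted p 0.000233 by edgeR). PSPH efficiency was lower in SH2 (-0.84, SE 0.21, adjusted p 0.0294 by edgeR), the single efficiency call of its list. Of all genes, 2.46% were called lower there.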

How the data were processed

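RNA and footprint libraries of MDA-MB-231 cells were analysed from 1 deposited table. Its raw counts per gene, deposited by the authors, were the input of every test. Per the file headers it also holds DESeq2-normalized signal, the authors' log2 fold changes and the authors' p-values. Per the submitters' processing notes Bowtie 1.2.2 and DESeq2 were used. Genome build, annotation, strand setting and counting rules are not given in the sources used here. A range of 26 to 30 in the table's label is read as footprint lengths, which no label states. The labels name 2 hairpins, without saying which is SH2 or SH3.

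Counts were tested in edgeR 4.0.16 (R 4.3.3) with filterByExpr, TMM scaling and the two-sided quasi-likelihood test, in 1 fit of 9 RNA libraries, 1 of 9 footprint libraries and, for translational efficiency, 1 of all 18 with an interaction contrast. P-values were Benjamini-Hochberg adjusted over all genes tested, and "called" means under 0.05. SE is the absolute log2 change over the square root of F. The method was run on simulated counts with few changed genes, 1 spread for all genes and no link between replicates. It was not tested under changes as broad as those found here. Of the 17017 symbols 16581 are current ones. Replicates of a group differed by more than counting noise (chi-square per degree of freedom 3.38 to 56.3).

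The named genes are all members, FBL, up to 3 genes per direction in each list called in RNA with both hairpins (ranked by the smaller change), up to 3 called in efficiency, and the 5 most like ATF4 in RNA (log2 CPM + 0.5). Members and lists were chosen with earlier results of these data known. Alternatives were DESeq2 1.42.0, its size factors, plain totals, no filter, only the groups compared, a replicate block, a block by treatment and number (tying RNA to footprint libraries), thinned footprints and leaving out each replicate. Deviations of same-numbered SH2 and SC samples correlated at 0.328 to 0.369 in RNA and 0.243 to 0.288 in footprints, so these numbers pair, although no label says what they mark. The numbers of SH3 did not pair with SC or with SH2 in all replicates.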

Additional observations from a re-analysis of the deposited data

Results flagged for a closer look

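Of the members, 7 results differed between the hairpins by a direct test of SH2 against SH3, edgeR's quasi-likelihood test adjusted over all genes. In RNA these log2 differences were 0.73 for TRIB3, 0.53 for CHAC1, 0.62 for ATF3, 0.58 for PPP1R15A and -0.91 for PHGDH. In footprints they were -1.27 for SESN2 and -1.19 for PHGDH. Of all genes, 18.9% were called higher and 20.4% lower in RNA, and 11.6% lower in footprints, so the count alone does not set the members apart. The RNA call was lost in 5 of 12 settings for PPP1R15A and in 1 of 12 for ATF3. It held in all 12 for TRIB3, CHAC1 and PHGDH. PHGDH was lower with SH2 in both kinds of library, in 3 of 3 libraries below every SH3 library. SESN2 was lower with SH2 in footprints, with an RNA difference of -0.36 that was not called. The causes of these differences were not tested.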

How the results depend on the processing

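The number of members called in RNA and in footprints changed by at most 1 across settings, although the members called could change more. With plain totals SH3 RNA had 6 members higher and 2 lower, beside 4 and 3 in the main fit. TRIB3 and CHAC1 gained a call under plain totals, and ATF4 lost its call. Leaving out 1 replicate gave 8 to 9 members in RNA and 5 to 6 in footprints for SH2 against SC, 6 to 8 and 5 for SH3, and 4 to 5 and 2 to 3 for SH2 against SH3. Over all genes, the same fits called 6893 to 7642 in RNA and 3740 to 4807 in footprints for SH2 against SC. For SH3 they called 5661 to 6415 and 2645 to 3771, and for SH2 against SH3 3726 to 5080 and 1541 to 2104. Efficiency calls in SH2, 3 members, were 1 with only the groups compared, 1 with thinned footprints and 0 to 2 when 1 replicate was left out. For SH2 against SH3 DESeq2 gave 1. Over all genes, efficiency calls in SH2 were 489, and 930 with DESeq2, 755 with a replicate block, 259 thinned, 191 with a block by treatment and number, 184 with only the groups compared and 110 to 555 without 1 replicate. In SH3 they were 86, and 383 with DESeq2, 150 with a replicate block, 63 thinned, 46 with only the groups compared, 23 with a block by treatment and number and 10 to 244 without 1 replicate. For SH2 against SH3 they were 2, and 254 with DESeq2, 75 with a replicate block, 36 with only the groups compared, 35 with no filter, 3 thinned, 0 with a block by treatment and number and 0 to 1 without 1 replicate. RNA calls for SH2 against SH3 in all genes stayed within 3726 to 5780. Footprint calls, 2459, fell to 1541 without 1 replicate and rose to 3019 with a replicate block or only the groups compared.

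The replicate block changed no member call for SH2 against SC (9 in RNA, 6 in footprints, 3 in efficiency). For SH3 against SC it gave 8 in RNA, and for SH2 against SH3 6 in RNA and 3 in footprints. Over all genes the block called 8353 in RNA and 5018 in footprints for SH2 against SC, and 7396 in RNA for SH3. For SH2 against SH3 it called 5780 in RNA and 3019 in footprints. SH3 paired with the other groups in some numbers only. Its RNA numbers 1, 2 and 3 correlated at 0.240, -0.115 and 0.281 with SC and at 0.463, 0.019 and 0.260 with SH2. In footprints these were 0.012, -0.059 and 0.248 with SC and -0.014, -0.114 and 0.302 with SH2.

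Values that changed sign were all uncalled, and the cause was not tested. ATF4 RNA between the hairpins was -0.071 to 0.12 without 1 replicate. ATF3 footprints between the hairpins were 0.011 thinned and -0.35 to 0.16 without 1 replicate, and those of PPP1R15A -0.37 to 0.032. CHAC1 footprints in SH3 were -0.27 to 0.43 without 1 replicate. In SH2 efficiency, PPP1R15A was -0.052 with plain totals, -0.0037 thinned, -0.0017 with a block by treatment and number and -0.27 to 0.38 without 1 replicate, and PSAT1 0.056 thinned and -0.098 to 0.091 without 1 replicate. In SH3 efficiency, CHAC1 was 0.18 thinned and -0.51 to 0.16 without 1 replicate, and PHGDH -0.26 to 0.0019. Footprint counts were lowest for CHAC1, ATF3 and DDIT3, at 5 to 67 a library, and the part of depth in these sign changes was not tested.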

Other observations

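Among the pathway lists, 3 genes were called in RNA in opposite directions by the hairpins, a selection made after their values were seen. DDIT4, an mTORC1 inhibitor, gave 0.65 in SH2 and -0.45 in SH3. EIF2B4, the delta subunit of eIF2B, gave -0.42 and 0.75, and EPRS1, the glutamyl-prolyl-tRNA synthetase, -0.59 and 0.56. Tested directly, SH2 minus SH3 was 1.09, -1.16 and -1.15 (edgeR adjusted p 2.40e-05, 2.03e-06 and 6.65e-06). Genes picked for opposite calls in the same fit must differ in this way, so these p-values are no separate support. Over all 12710 genes tested, 244 were called in opposite directions.

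The authors' deposited table has columns named RD for each hairpin, which are identical for SH2 and SH3 in all 17017 genes. A DESeq2 likelihood ratio test of treatment by library kind over the 3 treatments, run after the data were seen, gave the same p in 17017 genes (relative tolerance 0.001). Within that tolerance the deposited log2 value equalled the SH3 interaction in 17017 genes and the SH2 interaction in 4. In the authors' deposited table the adjusted RD p was 0.00356 for ATF3, 0.00398 for SESN2 and 0.0225 for TRIB3, the 3 members called in SH2 efficiency here. Beside them stands the SH3 log2 value, so that column does not give the SH2 change.

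In SH3 RNA replicate 2, ATF4 and PPP1R15A have the same deposited count, 11529. Their counts differ in each of the other 17 libraries.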
